A study of Homo sapiens with 6 samples.

Results

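This account covers ATF4 and 30 genes known as its targets in HT29 cells deprived of histidine or of tryptophan. ATF4 is the transcription factor at the centre of the integrated stress response. The 31 genes were taken by symbol in GENCODE release 44 from the Ensembl identifiers of the deposited expression tables, which list 60676 genes, and all 31 were found. HT29 is an established human colon adenocarcinoma line, labelled wild type. The study set histidine and tryptophan shortage side by side, and mRNA was sequenced after 48 h in 3 groups of 2 libraries each. Untreated cells had control medium, whose base is not stated for these libraries (the study's proteomics used full RPMI as control). Histidine-depleted cells had a medium without histidine made on an RPMI base, and tryptophan-depleted cells had one without tryptophan made on a DMEM F-12 base, both with dialyzed serum. Between the depletions the base medium and the missing amino acid therefore cannot be told apart. Against untreated cells the same holds wherever the control base or serum differed, and the control serum is not stated for these libraries.

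The integrated stress response starts when kinases phosphorylate the translation factor eIF2α. Bulk protein synthesis then slows, while ATF4 mRNA, which carries upstream reading frames, is translated more. The kinase GCN2 is activated by uncharged tRNA and links amino acid shortage to this response. ATF4 pairs with C/EBP family proteins on composite C/EBP-ATF elements and induces genes for amino acid synthesis, uptake, tRNA charging and feedback control. ATF4 is controlled to a large degree at translation, so its mRNA, which is what was measured here, need not follow its protein.

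The libraries held 46390819 and 52607332 reads for the untreated cells, 64388876 and 57574730 for the histidine-depleted cells, and 50894717 and 59514618 for the tryptophan-depleted cells. Nothing in the sources used here says that the 2 libraries of a group came from separate cultures, so p-values measure only the spread between these samples, which may be technical. In bulk RNA, fewer cells of a kind and less RNA per cell cannot be told apart. Of 13 colon epithelial markers, 11 had at least 10 normalized counts in every library, and their summed level was 449489 to 477532 in untreated, 583544 to 616740 in histidine-depleted and 639828 to 643885 in tryptophan-depleted cells. Most of that sum came from KRT8 and KRT18. The marker genes moved both ways, with 5 of 13 higher and 8 lower without histidine and 7 higher and 3 lower without tryptophan. Among all tested genes such changes were common, with 39.1% higher and 38.2% lower without histidine and 36.1% and 34.8% without tryptophan. Without histidine KRT8, a keratin, went from 186625 and 201539 to 320941 and 340439 normalized counts, LGALS4, a gut lectin, from 54148 and 56465 to 17513 and 19660, and CDX2, an intestinal transcription factor, from 469 and 457 to 182 and 172. CEACAM5, an epithelial adhesion antigen, had 497 and 540.1 in untreated, 66.9 and 105 in histidine-depleted and 7952 and 7856 in tryptophan-depleted cells, and KRT20, a keratin, had 10264 and 10759, 34599 and 35062, and 55379 and 54901. Of 12 markers of immune, stromal and other cells, 5 had at most 3 reads in every library. The sum of the 12 was 65062 to 69679 in untreated, 12602 to 14659 in histidine-depleted and 38575 to 38592 in tryptophan-depleted cells, nearly all from LYZ, while KIT and TPSAB1 had 0 reads throughout. PTPRC, a leukocyte gene, had at most 2 reads in any library, so this sum follows LYZ and does not count other cells. Of the 12 markers 1 rose and 4 fell among 6 tested without histidine, and 1 rose and 2 fell among 5 tested without tryptophan, where CD14 went from 104 and 119 to 379.9 and 367 normalized counts. The part of these shifts in the results was not tested.

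The 2 depletions moved these genes in different ways. Under tryptophan depletion 24 of the 28 members with enough reads to be tested rose and 1 fell, where 36.1% of all tested genes rose and 34.8% fell (70.8% in either direction). Under histidine depletion 3 of 28 rose and 20 fell, where 39.1% of all tested genes rose and 38.2% fell (77.3% in either direction). The median log2 fold change of the tested members was 0.92 under tryptophan depletion and -0.60 under histidine depletion, against 0.01 over all tested genes in both. When the log2 fold change also had to reach 1 in size, 13 members rose and 0 fell under tryptophan depletion, where 10.0% of all tested genes rose and 10.4% fell. By the same limit 0 members rose and 7 fell under histidine depletion, where 16.4% of all tested genes rose and 16.1% fell. Fold changes are on the log2(normalized count + 1) scale, and each was tested with limma and Benjamini-Hochberg adjustment over all tested genes at an adjusted p of 0.05. Both comparisons use the same untreated libraries, so they are not independent of each other. The direct comparison, given after the single genes, contrasts the depleted groups with each other, and the untreated libraries enter it through the scaling, the filter and the estimate of spread.

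**Figure D1:**
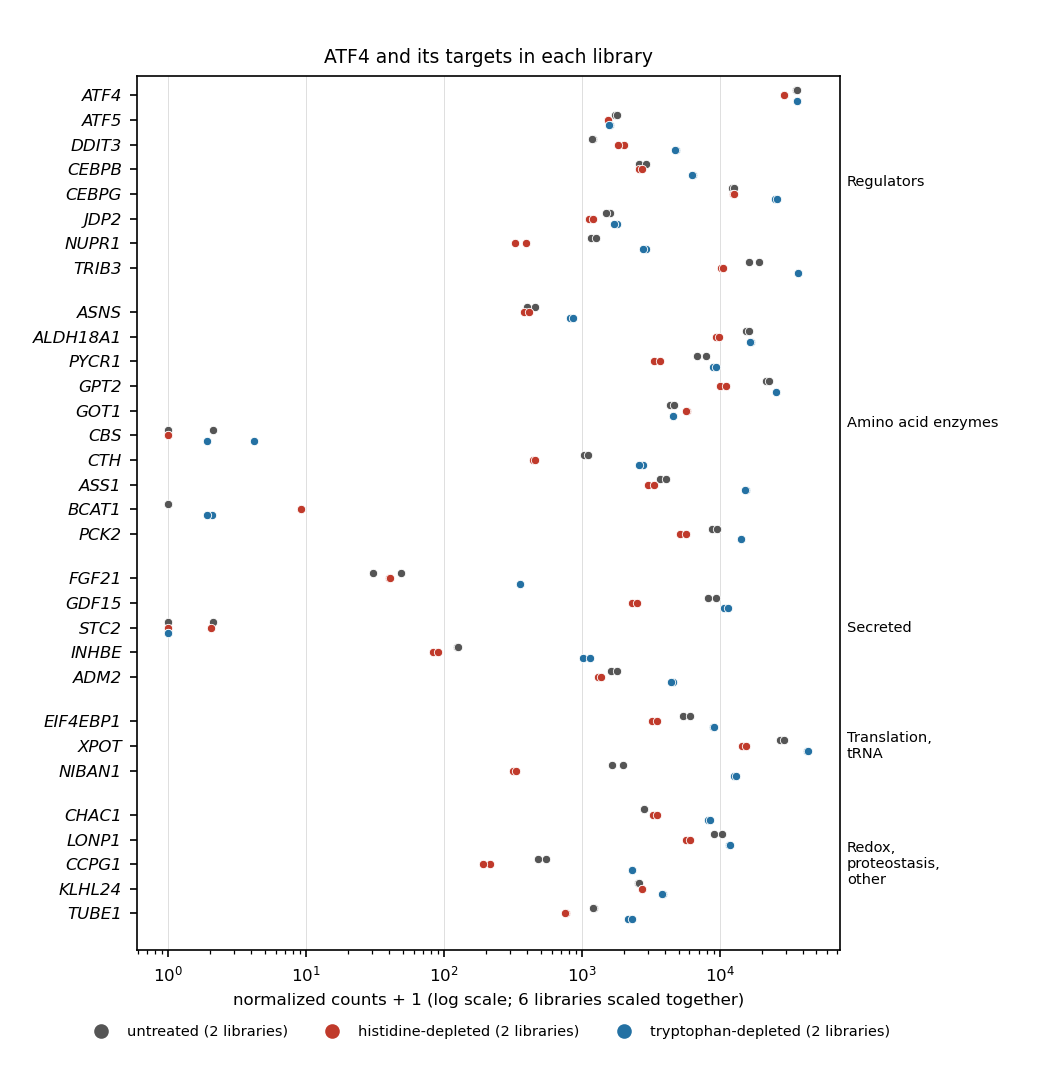
Normalized counts plus 1 of the 31 genes in each of the 6 libraries on a log axis, grouped by role, with 1 point per library. The tryptophan-depleted points of NIBAN1, INHBE, CCPG1 and FGF21 lie far to the right of the others, and the histidine-depleted points of NIBAN1, GDF15 and NUPR1 far to the left.

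Because ATF4 acts through C/EBP-ATF elements, the promoters of the members were searched for the core of that element. RefSeq windows of GRCh38.p14, from 250 bases before to 50 bases after a transcription start, were available for 26 of the 31 members in 45 windows, some genes having several starts. The core TGATGNAA, sought on both strands (reverse complement TTNCATCA), was in 7 of these windows, each of a different member (15.6% of the member windows), and in 3.62% of all 35116 windows. The stricter form TGATGCAA (reverse complement TTGCATCA), which is contained in the first, was in 6 of the 7 and in 0.866% of all windows. The 7 stretches of 30 bases are printed below 5′ to 3′ on the strand of the gene, with the matching letters in capitals, to show where each match lies and the bases around it.
ASNS, chr7:97872458-97872487, minus strand: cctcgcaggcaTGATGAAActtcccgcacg
GOT1, chr10:99430804-99430833, minus strand: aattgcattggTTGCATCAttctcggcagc
BCAT1, chr12:24949131-24949160, minus strand: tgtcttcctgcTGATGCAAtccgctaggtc
JDP2, chr14:75427995-75428024, plus strand: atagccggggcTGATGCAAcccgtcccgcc
CHAC1, chr15:40953251-40953280, plus strand: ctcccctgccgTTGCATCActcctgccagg
CEBPG, chr19:33374060-33374089, plus strand: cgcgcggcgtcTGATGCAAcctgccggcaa
FGF21, chr19:48755459-48755488, plus strand: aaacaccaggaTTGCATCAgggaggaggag

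The first letter of the core lay 16 bases before the start in JDP2, 42 in CEBPG, 48 in BCAT1, 54 in FGF21, 68 in ASNS, 198 in GOT1 and 209 in CHAC1. A match is a description of these letters only, and a window without it can hold other forms of the element or have it elsewhere. Of the 6 holders with enough reads, JDP2, CHAC1, CEBPG, FGF21 and ASNS rose under tryptophan depletion, and GOT1 had a log2 fold change of 0.02 (adjusted p = 0.778, limma). Under histidine depletion CHAC1 and GOT1 rose, JDP2 fell, and CEBPG, FGF21 and ASNS did not pass the test. Of all 28 tested members, 24 rose under tryptophan depletion, and 3 rose and 20 fell under histidine depletion. Among all tested genes 36.1% rose in the first, and 39.1% rose and 38.2% fell in the second. Whether a match goes with a change was not tested.

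Among the 8 regulators, the transcription factors and their pseudokinase inhibitor, 6 rose and 1 fell under tryptophan depletion, while 1 rose and 5 fell under histidine depletion. ATF4 itself (chromosome 22, 39519695 to 39522683) had 35399 and 36172 normalized counts in untreated, 29293 and 29332 in histidine-depleted and 36096 and 36416 in tryptophan-depleted cells. The histidine-depleted libraries lay below all others, and the remaining groups were close together. The log2 fold change was -0.28 ± 0.0542 (SE, adjusted p = 5.91e-05, limma) under histidine depletion and 0.01 (95% interval -0.09 to 0.12, adjusted p = 0.855) under tryptophan depletion. After quantile normalization the latter was -0.18 (adjusted p = 6.15e-05, with a range of 6.15e-05 to 0.995 over the alternatives), so its direction depended on the scaling. Per kilobase of exon ATF4 was the most abundant member in untreated cells, at 266 RPKM (reads per kilobase of exon, scaled to library size). There are 4 pseudogenes named after ATF4, whose share of its reads is uncertain.

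DDIT3 (chromosome 12, 57516588 to 57521737), which encodes the stress-induced factor CHOP, rose in both depletions. Its normalized counts were 1198 and 1177 in untreated, 2011 and 1806 in histidine-depleted and 4758 and 4739 in tryptophan-depleted cells. The 3 groups did not overlap. Its log2 fold change was 0.69 ± 0.0632 (SE, adjusted p = 4.43e-10, limma) under histidine depletion, a fold of 1.61, and 1.99 ± 0.0514 (adjusted p = 8.07e-74) under tryptophan depletion, a fold of 3.98. Exons of MARS1 and MBD6 on the opposite strand overlap 31.6% of the exonic bases of DDIT3, and whether the counting used strand is not given in the sources used here.

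TRIB3 (chromosome 20, 362835 to 397559), a pseudokinase that binds ATF4 and dampens its activity, had 16309.8 and 19062 normalized counts in untreated, 10126 and 10577 in histidine-depleted and 36988 and 36856 in tryptophan-depleted cells. It was lowest without histidine and highest without tryptophan, with no overlap. Its log2 fold change was -0.76 ± 0.0604 (SE, adjusted p = 3.31e-11, limma) in the first and 1.06 ± 0.0521 (adjusted p = 5.25e-42) in the second. NUPR1 (chromosome 16, 28532708 to 28539008), a small stress-induced chromatin protein, showed the same order more widely spread, with 1153 and 1268, 324 and 392, and 2908 and 2785 normalized counts in untreated, histidine-depleted and tryptophan-depleted cells. Its log2 fold changes were -1.75 ± 0.0867 (adjusted p = 3.50e-15) and 1.23 ± 0.0547 (adjusted p = 1.97e-46).

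The C/EBP partners responded to tryptophan depletion. CEBPB (chromosome 20, 50190830 to 50192668) had 2597 and 2909 normalized counts in untreated, 2576 and 2707 in histidine-depleted and 6393 and 6261 in tryptophan-depleted cells. CEBPG (chromosome 19, 33373685 to 33382686), the C/EBP that lacks an activation domain and pairs with ATF4, had 12151 and 12703, 12359.8 and 12561, and 25235 and 25955. In both genes the untreated and histidine-depleted libraries overlapped and the tryptophan-depleted ones stood above. Their log2 fold changes under tryptophan depletion were 1.19 (adjusted p = 1.21e-50, limma) and 1.04 (adjusted p = 3.65e-44), and under histidine depletion -0.05 (95% interval -0.17 to 0.07) and 0.01 (95% interval -0.09 to 0.12). The direction of CEBPG under histidine depletion flipped to -0.26 after quantile normalization (adjusted p = 1.44e-05, range over the alternatives 1.44e-05 to 0.968). CEBPB was called lower there when untreated replicate 1 was left out (-0.13, adjusted p = 0.0313) and after quantile normalization (-0.12, adjusted p = 0.0390), with a range of 0.0313 to 0.869 over the alternatives.

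The remaining regulators moved little. JDP2 (chromosome 14, 75427716 to 75474111), a repressor of the AP-1 family, had 1596 and 1479 normalized counts in untreated, 1116 and 1188 in histidine-depleted and 1778 and 1709 in tryptophan-depleted cells. Its log2 fold changes were -0.41 (adjusted p = 3.14e-06, limma) and 0.17 (adjusted p = 0.00376). ATF5 (chromosome 19, 49928702 to 49933935), a factor related to ATF4, was lower in both depletions, with 1741 and 1779, 1541 and 1546, and 1582 and 1569 normalized counts and log2 fold changes of -0.18 (adjusted p = 0.00667) and -0.17 (adjusted p = 0.00505). The fall of JDP2 without histidine kept its call under every alternative run except the limit of 1 on the log2 fold change. Its tryptophan call was lost without tryptophan-depleted replicate 1 (adjusted p = 0.104), in DESeq2 (0.0505) and in limma without the trend (0.0910), with a range of 4.40e-05 to 0.104 over the alternatives. The calls of ATF5 were lost without either replicate of the depleted group in both comparisons (adjusted p = 0.0506 and 0.0533 for histidine, range 0.00176 to 0.0533, and 0.0700 and 0.0701 for tryptophan, range 0.00129 to 0.0701).

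**Figure D2:**
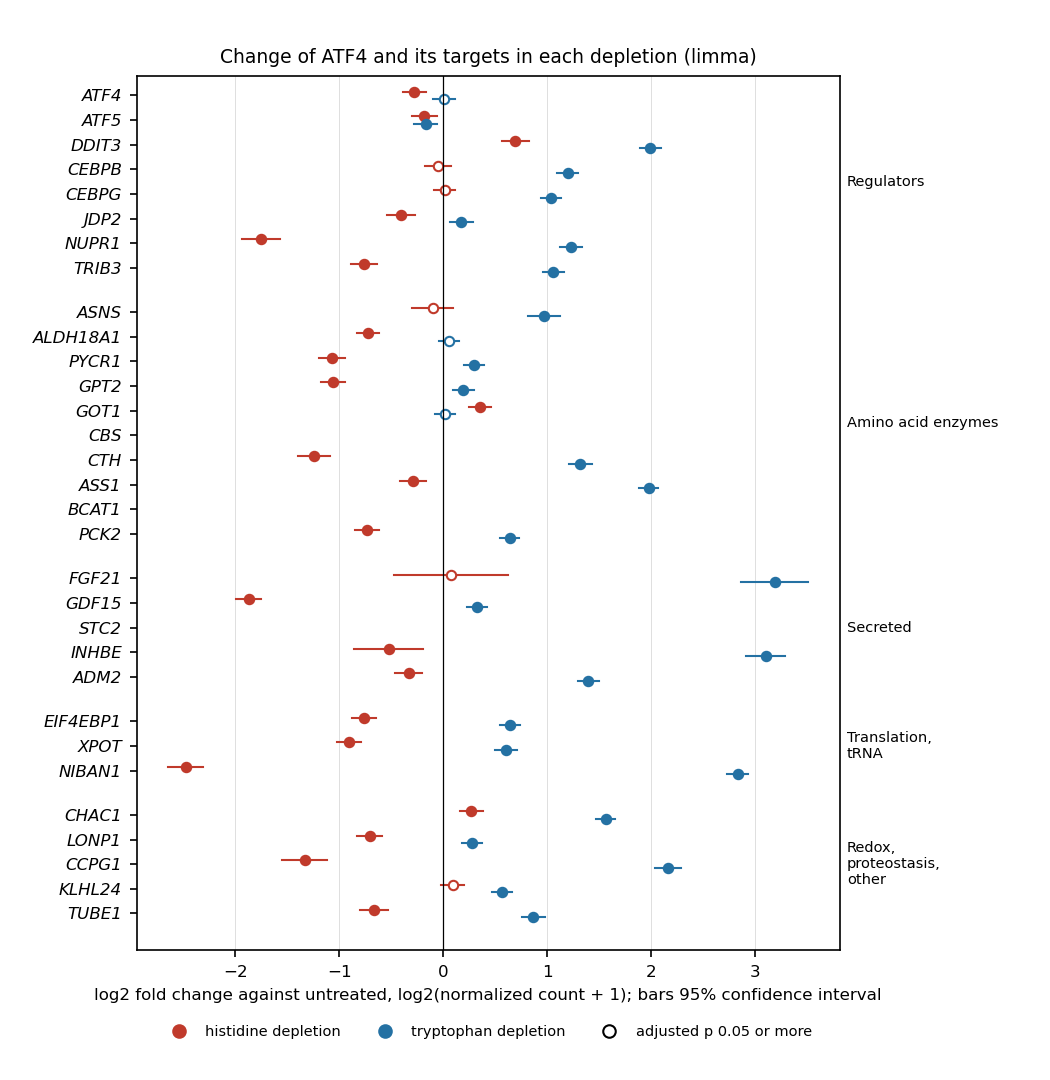
Log2 fold change against untreated cells with its 95% confidence interval for each tested member under histidine and under tryptophan depletion, open circles marking an adjusted p of 0.05 or more. The members spread from -2.47 to 0.69 under histidine depletion and from -0.17 to 3.19 under tryptophan depletion, and CBS, BCAT1 and STC2 had too few reads to be plotted.

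Of the 10 enzymes of amino acid metabolism 8 had enough reads. Under tryptophan depletion 6 of them rose and none fell, and under histidine depletion 1 rose and 6 fell, with median log2 fold changes of 0.47 and -0.73. ASNS (chromosome 7, 97851677 to 97872542), asparagine synthetase and the classic amino acid response gene, was a gene of modest abundance here. It had 456 and 398 normalized counts in untreated, 376 and 413 in histidine-depleted and 819.5 and 854 in tryptophan-depleted cells. The untreated and histidine-depleted values overlapped. The log2 fold change was 0.97 ± 0.0776 (SE, adjusted p = 1.89e-23, limma) under tryptophan depletion and -0.10 (95% interval -0.30 to 0.09, adjusted p = 0.327) under histidine depletion, the latter turning to 0.12 after quantile normalization. A long non-coding RNA on the same strand shares 49.3% of the exonic bases of ASNS, and 4 pseudogenes carry its name. The counting may therefore have left out or split reads of ASNS. The non-coding RNA itself had 9 and 15 reads in untreated, 54 and 47 in histidine-depleted and 27 and 20 in tryptophan-depleted cells.

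The largest rise among the enzymes was that of ASS1 (chromosome 9, 130444961 to 130501274), argininosuccinate synthase, which makes the precursor of arginine from citrulline and aspartate. It had 3686 and 4078 normalized counts in untreated, 3009 and 3299 in histidine-depleted and 15324 and 15299.9 in tryptophan-depleted cells. The tryptophan-depleted libraries stood 3.93-fold above untreated (log2 fold change 1.97 ± 0.0472 SE, adjusted p = 6.12e-78, limma). Under histidine depletion the log2 fold change was -0.29 ± 0.0584 (adjusted p = 8.87e-05), a call lost without the mean-variance trend in limma (adjusted p = 0.0538, range over the alternatives 5.96e-09 to 0.0538). There are 14 pseudogenes named after ASS1, whose share of its reads is uncertain.

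CTH (chromosome 1, 70411218 to 70439851), which splits cystathionine to release cysteine, had 1032 and 1093 normalized counts in untreated, 437 and 455 in histidine-depleted and 2763 and 2573 in tryptophan-depleted cells. It changed by more than 1 on the log2 scale in each comparison, by -1.24 ± 0.0749 (SE, adjusted p = 1.62e-13, limma) and 1.32 ± 0.0557 (adjusted p = 5.39e-49). PCK2 (chromosome 14, 24094053 to 24110598), the mitochondrial phosphoenolpyruvate carboxykinase, had 8721 and 9459, 5166 and 5694, and 14258 and 14180.0 normalized counts in the same order of groups. Its log2 fold changes were -0.73 (adjusted p = 1.22e-11) and 0.64 (adjusted p = 3.75e-26).

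PYCR1, GPT2 and ALDH18A1 fell without histidine and shifted little without tryptophan. PYCR1 (chromosome 17, 81932384 to 81942412), which completes proline synthesis, had 6820.4 and 7905 normalized counts in untreated, 3319 and 3642 in histidine-depleted and 8903 and 9274 in tryptophan-depleted cells, with log2 fold changes of -1.07 (adjusted p = 6.72e-14, limma) and 0.30 (adjusted p = 1.60e-08). GPT2 (chromosome 16, 46884362 to 46931289), the mitochondrial alanine aminotransferase, had 21404 and 22827, 10039 and 11128, and 25376 and 25469, with log2 fold changes of -1.06 (adjusted p = 1.26e-14) and 0.19 (adjusted p = 0.000312). In both genes the histidine-depleted libraries lay lowest and the tryptophan-depleted ones just above untreated, without overlap. The tryptophan calls of PYCR1 and GPT2 were lost in limma without the trend (adjusted p = 0.0666 and 0.0579). ALDH18A1 (chromosome 10, 95605941 to 95656711), which starts proline synthesis from glutamate, had 15558 and 16142, 9334 and 9773, and 16679.7 and 16415, with log2 fold changes of -0.72 (adjusted p = 3.04e-12) and 0.05 (adjusted p = 0.306). Under tryptophan depletion the call of GPT2 was lost without tryptophan-depleted replicate 1 or 2 (adjusted p = 0.0723 and 0.103, range over the alternatives 7.80e-15 to 0.103), and ALDH18A1 gained one without untreated replicate 2 (adjusted p = 0.0159, range 0.0159 to 0.666) and turned to -0.035 after quantile normalization.

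GOT1 (chromosome 10, 99396870 to 99430624), the cytosolic aspartate aminotransferase, had 4347 and 4633 normalized counts in untreated, 5720.0 and 5648 in histidine-depleted and 4548 and 4573 in tryptophan-depleted cells. Its highest values were in the histidine-depleted libraries. The log2 fold change was 0.35 ± 0.0513 (SE, adjusted p = 1.30e-06, limma) under histidine depletion and 0.02 (95% interval -0.08 to 0.11, adjusted p = 0.778) under tryptophan depletion, the latter -0.019 after quantile normalization. CBS (chromosome 21, 43053191 to 43076943), the enzyme before CTH in the same pathway, had 1 and 0 reads in untreated, 0 and 0 in histidine-depleted and 3 and 1 in tryptophan-depleted cells, too few to test. BCAT1 (chromosome 12, 24810024 to 24949101), the cytosolic branched-chain aminotransferase, had 0 and 0, 9 and 8, and 1 and 1 reads in the same order, and its mean lay under the minimum for a test. Without that filter it was called higher without histidine than in untreated cells (adjusted p = 0.0010, limma) and than without tryptophan (adjusted p = 0.00444).

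Of the 5 secreted factors 4 had enough reads, and all 4 rose under tryptophan depletion with a median log2 fold change of 2.25, while 3 fell and none rose under histidine depletion. FGF21 (chromosome 19, 48755524 to 48758333), a hormone of the fasting response, had 29.5 and 47.7 normalized counts in untreated, 38.9 and 39.7 in histidine-depleted and 352 and 352 in tryptophan-depleted cells. It was scarce except without tryptophan. Its log2 fold change there was 3.19 ± 0.162 (SE, adjusted p = 1.64e-40, limma), a fold of 9.10, and under histidine depletion it was 0.07 with a wide 95% interval of -0.48 to 0.62. That value turned to -0.27 without untreated replicate 1. INHBE (chromosome 12, 57452323 to 57459280), the inhibin beta E subunit, had 122 and 125 normalized counts in untreated, 81.3 and 89.5 in histidine-depleted and 1019 and 1136 in tryptophan-depleted cells. Its log2 fold change was 3.10 ± 0.0940 (adjusted p = 2.12e-65) without tryptophan, a fold of 8.58. Without histidine it was -0.52 ± 0.161 (adjusted p = 0.00510), a call that DESeq2 did not make (adjusted p = 0.0642, range over the alternatives 0.000295 to 0.0642).

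GDF15 (chromosome 19, 18374731 to 18389176), a circulating stress cytokine that lowers appetite, was the most abundant of the secreted factors per length, at 81.8 RPKM in untreated cells. Its normalized counts were 8231 and 9365 in untreated, 2282 and 2495 in histidine-depleted and 10734 and 11387 in tryptophan-depleted cells. The histidine-depleted libraries stood far below the rest, with a log2 fold change of -1.87 ± 0.0597 (SE, adjusted p = 7.51e-19, limma), a fold of 3.66, against 0.32 ± 0.0482 (adjusted p = 1.15e-09) without tryptophan. ADM2 (chromosome 22, 50481543 to 50486440), a peptide of the calcitonin family, had 1632 and 1777, 1308 and 1381, and 4568 and 4446 normalized counts, with log2 fold changes of -0.33 (adjusted p = 3.73e-05) and 1.40 (adjusted p = 2.74e-56). STC2 (chromosome 5, 173314723 to 173328447), a secreted glycoprotein, had at most 1 read in any library and was not tested.

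All 3 genes of translation and tRNA biology fell without histidine and rose without tryptophan. NIBAN1 (chromosome 1, 184790724 to 184974508), a stress-induced regulator of translation factor phosphorylation, had the widest spread of any member. It had 1656 and 1966 normalized counts in untreated, 314 and 331 in histidine-depleted and 12707 and 13106 in tryptophan-depleted cells. The groups were far apart. Its log2 fold change was -2.47 ± 0.0807 (SE, adjusted p = 1.14e-18, limma) without histidine, a fold of 5.56, and 2.83 ± 0.0496 (adjusted p = 7.35e-95) without tryptophan, a fold of 7.11. EIF4EBP1 (chromosome 8, 38030534 to 38060365), the repressor of cap-dependent initiation that binds eIF4E, had 5413 and 6042, 3234 and 3479.8, and 8936 and 9017 normalized counts, with log2 fold changes of -0.76 (adjusted p = 1.12e-11) and 0.64 (adjusted p = 2.90e-26). XPOT (chromosome 12, 64404392 to 64451125), the exportin that carries tRNA out of the nucleus, had 27167 and 29192, 14498 and 15442, and 42768 and 43480.4, with log2 fold changes of -0.90 (adjusted p = 1.87e-13) and 0.61 (adjusted p = 6.10e-21).

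The last 5 members act in redox balance, protein quality control and other functions. All 5 rose under tryptophan depletion, and under histidine depletion 1 rose and 3 fell. CHAC1 (chromosome 15, 40952962 to 40956512), which degrades glutathione, rose in both, with 2812 and 2826 normalized counts in untreated, 3259 and 3507 in histidine-depleted and 8213 and 8529 in tryptophan-depleted cells. Its log2 fold changes were 0.27 ± 0.0535 (SE, adjusted p = 7.05e-05, limma) and 1.56 ± 0.0473 (adjusted p = 1.75e-65). CCPG1 (chromosome 15, 55340032 to 55408510), a receptor for autophagy of the endoplasmic reticulum, had 479 and 547, 214 and 189, and 2299.6 and 2313 normalized counts. It went down without histidine (log2 fold change -1.33 ± 0.105, adjusted p = 3.01e-11) and up 4.48-fold without tryptophan (2.16 ± 0.0633, adjusted p = 3.22e-67). Other genes on its strand share 38.9% of its exonic bases, among them a readthrough transcript with 0 reads in every library.

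LONP1 (chromosome 19, 5691834 to 5720572), the mitochondrial Lon protease, had 9003 and 10356 normalized counts in untreated, 5680.3 and 6093 in histidine-depleted and 11659 and 11836 in tryptophan-depleted cells, with log2 fold changes of -0.71 (adjusted p = 8.52e-11, limma) and 0.28 (adjusted p = 1.69e-07). KLHL24 (chromosome 3, 183635610 to 183684519), a substrate adaptor for a ubiquitin ligase, had 2558 and 2573, 2701 and 2729, and 3829 and 3799, with log2 fold changes of 0.09 (adjusted p = 0.118) and 0.56 (adjusted p = 5.22e-21). TUBE1 (chromosome 6, 112070663 to 112087529), the centriolar epsilon tubulin, had 1226 and 1192, 759 and 754, and 2149 and 2285, with log2 fold changes of -0.67 (adjusted p = 2.06e-09) and 0.87 (adjusted p = 6.14e-31). In LONP1 and TUBE1 the groups kept the order histidine-depleted, untreated, tryptophan-depleted without overlap, while KLHL24 was highest without tryptophan. The tryptophan call of LONP1 was lost in limma without the trend (adjusted p = 0.0691).

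The depleted libraries were then compared directly, with histidine depletion minus tryptophan depletion tested in the 6 libraries scaled together. Of 28 tested members 26 were lower and 1 was higher without histidine, where 38.0% of all tested genes were lower and 38.7% higher (76.7% in either direction). The median log2 difference was -1.39 against 0.01 over all tested genes, and 21 members were lower and 0 higher by 1 or more, where 15.8% and 16.0% of all tested genes were. NIBAN1 differed most, by -5.32 ± 0.0647 (SE, adjusted p = 1.95e-19, limma), a fold of 40.0. INHBE followed at -3.64 ± 0.110 (adjusted p = 5.54e-15), CCPG1 at -3.51 ± 0.0807 (adjusted p = 1.93e-16) and FGF21 at -3.13 ± 0.204 (adjusted p = 1.86e-10). The intervals of INHBE (-3.87 to -3.41), CCPG1 (-3.68 to -3.34) and FGF21 (-3.56 to -2.70) overlap, so their order is not set.

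The genes that rose in both depletions also differed between them. DDIT3 was lower without histidine by -1.32 ± 0.0520 (SE, adjusted p = 1.91e-13, limma) and CHAC1 by -1.31 ± 0.0444 (adjusted p = 2.53e-14). ATF4 differed by -0.31 ± 0.0388 (adjusted p = 1.33e-06), which was less than most of its targets. ATF5 did not pass the test, at -0.03 (95% interval -0.13 to 0.07, adjusted p = 0.582). GOT1 was the single member higher without histidine, by 0.32 ± 0.0419 (adjusted p = 2.24e-06).

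**Figure D3:**
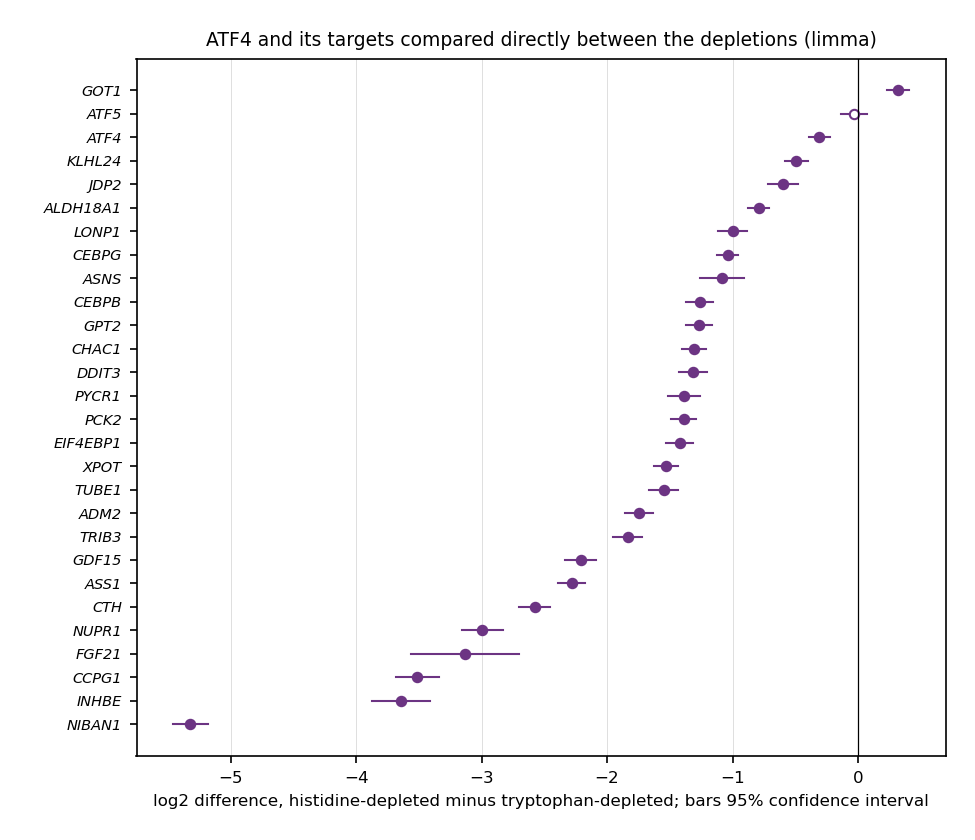
Log2 difference between histidine-depleted and tryptophan-depleted cells with its 95% confidence interval for the 28 tested members, in order of size, the open circle marking an adjusted p of 0.05 or more. Points left of 0 are lower without histidine, which holds for all but GOT1, and ATF5 lies across 0.

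Other genes of the pathway were read from lists of their own to set the members beside them. The first held 14 genes, for the eIF2α kinases, their phosphatase subunits and the eIF2 and eIF2B factors, together with GCN1 and IMPACT. Of these 14, 10 rose and 4 fell under histidine depletion and 8 rose and 2 fell under tryptophan depletion. Of all tested genes 77.3% were called without histidine (39.1% higher, 38.2% lower) and 70.8% without tryptophan (36.1% higher, 34.8% lower), and the counts of each list stand against these shares. PPP1R15A, or GADD34, the stress-induced phosphatase subunit that reverses eIF2α phosphorylation, had 7829 and 7954 normalized counts in untreated, 111972 and 108737 in histidine-depleted and 14769.6 and 15288 in tryptophan-depleted cells. Its log2 fold changes were 3.81 ± 0.0539 (SE, adjusted p = 2.42e-25, limma) and 0.92 (adjusted p = 1.26e-40), and it was higher without histidine by 2.88 (adjusted p = 8.74e-19). That is the reverse of the order in most members. EIF2AK4, the gene of GCN2, had 3028 and 2995, 4081 and 4086, and 3732 and 3795 normalized counts, rising by 0.45 (adjusted p = 1.95e-08) and 0.31 (adjusted p = 5.50e-09). The other eIF2α kinase genes had lower counts without histidine than in untreated cells and higher counts without tryptophan. EIF2AK1 had 14119 and 14651, 9511 and 9770, and 17070 and 16908 normalized counts. EIF2AK2 had 5535 and 5524, 3760 and 3989, and 7330 and 7834, and EIF2AK3 had 1245 and 1334, 1140 and 1016, and 2176 and 2337.

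Of 11 further ATF4 targets, 6 rose, 2 fell and 3 were not called under histidine depletion, with a median log2 fold change of 0.35. Under tryptophan depletion 10 rose and 1 fell, with a median of 1.02. ATF3, a stress-induced repressor, had 1977 and 1945.5 normalized counts in untreated, 5556 and 5422 in histidine-depleted and 3869 and 3887 in tryptophan-depleted cells. It rose by 1.49 (adjusted p = 3.15e-18, limma) and 0.98 (adjusted p = 4.15e-40) and was higher without histidine by 0.50 (adjusted p = 4.54e-09). SQSTM1, the autophagy receptor p62, had 19426 and 20579, 249843 and 252426, and 59254 and 59743 normalized counts, with log2 fold changes of 3.66 and 1.57. Compared directly, 5 of the 11 were higher and 5 lower without histidine than without tryptophan, with a median difference of -0.02. Of all tested genes 38.7% were higher and 38.0% lower in that comparison, near these counts. PPP1R15A, ATF3, SQSTM1 and the autophagy gene MAP1LC3B were among the higher ones, the last by 1.21 (adjusted p = 3.79e-13). The lower ones were DDIT4 (-2.28), VLDLR (-1.93), VEGFA (-1.66), SESN2 (-1.46) and HERPUD1 (-0.90), which had the direction of most members and are named here after their values were seen.

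Of 11 tested amino acid transporters 4 rose and 5 fell without histidine and 8 rose and 3 fell without tryptophan. The histidine counts stood near the shares of all tested genes (39.1% higher, 38.2% lower), but 3 rose and 8 fell after quantile normalization. SLC6A9, a glycine transporter, changed by -0.26 and 1.91, and SLC7A11, the cystine and glutamate exchanger, by -1.41 and -0.79. Past a log2 fold change of 1, 2 transporters rose and 2 fell without histidine, where 16.4% and 16.1% of all tested genes did. Without tryptophan 3 rose and 0 fell by that limit, where 10.0% and 10.4% of all tested genes did. In the 10 genes of serine and one-carbon metabolism 1 rose and 8 fell without histidine, and 4 rose and 6 fell without tryptophan. Of 20 cytosolic aminoacyl-tRNA synthetases 8 rose and 9 fell without histidine, and 10 rose and 5 fell without tryptophan, with medians of -0.02 and 0.09 whose sign changed over the alternatives (-0.31 to 0.03 and -0.03 to 0.12). The histidine counts of the synthetases were again near 39.1% and 38.2%, but 7 rose and 12 fell after quantile normalization. HARS1, which charges histidine tRNA, had 4414 and 4587 normalized counts in untreated, 5897 and 5759 in histidine-depleted and 3574 and 3789.9 in tryptophan-depleted cells, changing by 0.38 (adjusted p = 2.43e-07, limma) and -0.30 (adjusted p = 2.01e-08). WARS1, which charges tryptophan tRNA, had 10067 and 11056, 6585 and 7089, and 31361 and 32051, changing by -0.62 (adjusted p = 2.57e-10) and 1.58 (adjusted p = 4.35e-64).

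Genes of the ATF6 and XBP1 branches of the unfolded protein response also had higher mRNA without tryptophan. All 14 genes of that list rose there, with a median log2 fold change of 0.83, and 13 or 14 rose under every alternative except the limit of 1 on the log2 fold change. Without histidine 8 rose and 3 fell with a median of 0.27, and after quantile normalization 6 rose and 4 fell with a median of 0.036. HSPA5, the endoplasmic reticulum chaperone BiP, changed by 0.73 and 1.74, and DNAJB9, its co-chaperone, by 1.43 and 1.94. Compared directly, 13 of the 14 were lower and 1 was higher without histidine, where 38.0% and 38.7% of all tested genes were. The exception was XBP1, with 20121 and 21432 normalized counts in untreated, 45834 and 45205 in histidine-depleted and 25696 and 25623 in tryptophan-depleted cells.

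**Figure D4:**
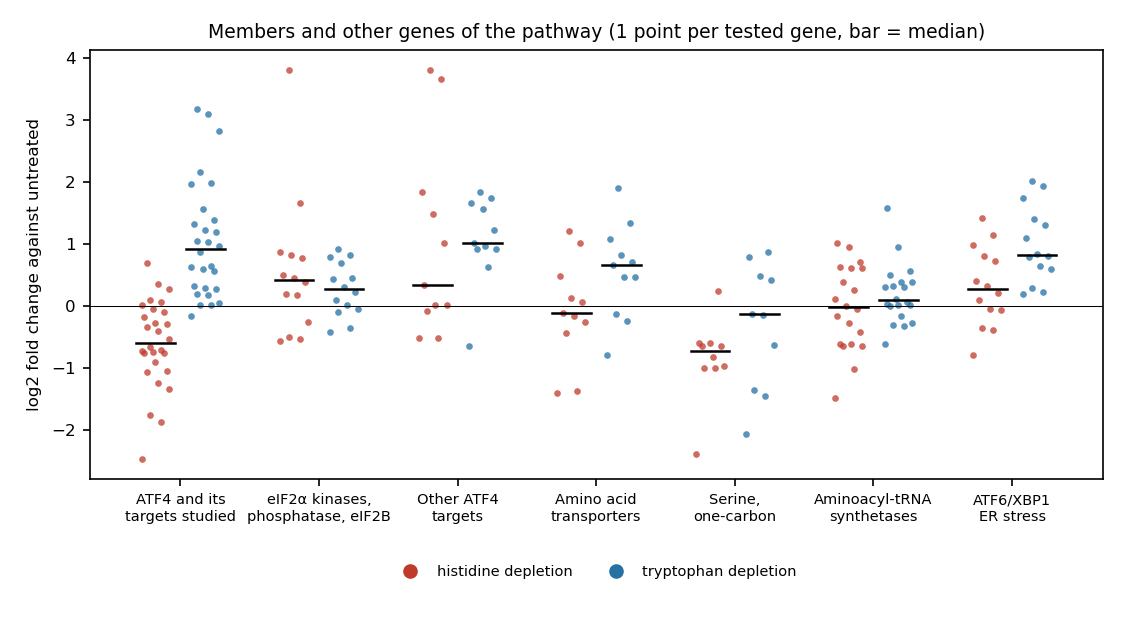
Log2 fold change against untreated cells of each tested gene of the members and 6 other pathway lists under histidine and tryptophan depletion, 1 point per gene, with bars at the medians. The member medians are -0.60 and 0.92, and the highest histidine points of the kinase and phosphatase list and of the other ATF4 targets, at 3.81, are both PPP1R15A, which is on both lists.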

How the data were processed

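Per the labels, stranded mRNA libraries with molecular identifiers were sequenced in read pairs. The submitters' processing notes name STAR 2.7.10a, HTSeq 2.0.5, DESeq2 and build GRCh38; use of strand, identifiers and multi-mapping reads is not given in the sources used here. The authors deposited a normalized signal, gene counts divided by size factors, in 1 table per depletion, each with the untreated libraries. All values were whole reads within 0.001 after rescaling. Genes whose mean normalized count reached 10 were tested on log2(value + 1) with limma 3.58.1 (trend, R 4.3.3), and edgeR 4.0.16 and DESeq2 1.42.0 were run on the recovered reads as alternatives. They called 14280 and 12484 genes for histidine, 12839 and 10777 for tryptophan and 14240 and 12659 in the direct comparison. Values printed per library, and the direct comparison, come from reads of all 6 libraries scaled together; fold changes against untreated come from each table. All 31 members were named, and from each other list up to 3 genes with the largest change and a mean count of 100 or more. ATF3, PPP1R15A, EIF2AK4, HARS1 and WARS1 were added. Not every gene allowed was printed. Named outside this rule, after their values were seen, were EIF2AK1, EIF2AK2, EIF2AK3, DDIT4, VLDLR, VEGFA, SESN2, HERPUD1, XBP1 and the cell type markers. The members and lists were chosen with earlier results of these data known. Gene names came from GENCODE 44, a later release than that of the counts. Scripts were tested on simulated data.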

Additional observations from a re-analysis of the deposited data

Results flagged for a closer look

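For 27 of 28 tested members the test of the difference between the depletions itself passed, as it did for 76.7% of all tested genes. The depleted groups, whose base medium also differed, were therefore not alike in these genes. The log2 differences, histidine-depleted minus tryptophan-depleted, were -5.32 for NIBAN1, -3.64 for INHBE, -3.51 for CCPG1, -3.13 for FGF21, -2.99 for NUPR1, -2.58 for CTH, -2.28 for ASS1, -2.21 for GDF15, -1.83 for TRIB3 and -1.74 for ADM2. They were -1.55 for TUBE1, -1.53 for XPOT, -1.42 for EIF4EBP1, -1.39 for PCK2, -1.39 for PYCR1, -1.32 for DDIT3, -1.31 for CHAC1, -1.27 for GPT2, -1.26 for CEBPB, -1.08 for ASNS and -1.04 for CEBPG. The smallest were -0.998 for LONP1, -0.79 for ALDH18A1, -0.60 for JDP2, -0.49 for KLHL24, -0.31 for ATF4 and 0.32 for GOT1. With 2 libraries in a group no library could be checked for standing apart from its group.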

How the results depend on the processing

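In the direct comparison all 448 member values over the alternatives other than the fold limit kept their direction and call. Against untreated, 380 of 391 did for histidine and 374 of 392 for tryptophan. A minimum absolute log2 fold change of 1 gave 0 higher and 7 lower members for histidine, 13 higher and 0 lower for tryptophan, and 0 higher in the direct comparison. Testing all genes without the filter added BCAT1 to the higher members, giving 4 for histidine and 2 in the direct comparison. Its size there is set by the pseudocount, since it had 0 reads in untreated and 1 in each tryptophan-depleted library. The count of members higher without tryptophan was 20 in limma without the trend and 22 to 25 when single libraries were left out, and the count lower there was 0 in limma without the trend, 2 after quantile normalization, and 0 to 1 when single libraries were left out. Leaving out a library leaves 1 in its group, which limma then assumes to vary like the other group. Quantile normalization reversed CEBPG (-0.26) and ASNS (0.12) for histidine, and ATF4 (-0.18), ALDH18A1 (-0.035) and GOT1 (-0.019) for tryptophan. Leaving out single libraries moved CEBPB from -0.13 to 0.036, CEBPG from -0.022 to 0.048 and FGF21 from -0.27 to 0.41 for histidine, and ATF4 from -0.0042 to 0.027 and GOT1 from -0.030 to 0.062 for tryptophan. Of the reversed values only those of CEBPG and ATF4 after quantile normalization passed the test when reversed. JDP2 (adjusted p = 0.0910), PYCR1 (0.0666), GPT2 (0.0579), LONP1 (0.0691) and ATF5 (0.0524) lost their tryptophan call without the trend in limma. The cause was not tested. Same-numbered replicates did not deviate together (r = 0.0420, 0.00196 and -0.0412 across genes), and with the replicate number as a block the counts stayed at 3 higher and 20 lower for histidine, 24 and 1 for tryptophan, and 1 and 26 directly. The filter at 10 normalized counts, not the depth alone, left CBS, BCAT1 and STC2 untested.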
